A study of Gallus gallus with 4 samples.

Results

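The genes described here encode voltage-gated and related ion channels of the chick optic tectum, with their auxiliary subunits. They were found by gene symbols that begin with the stems of potassium, sodium, calcium, HCN, chloride and TRP channel names, or by probe descriptions that name a potassium, sodium or calcium channel, without regard to capitals. The search found 111 of 42034 gene probes, which stand for 89 of 40541 genes and unnamed features. Of the 89, 77 fall into channel classes and 12 do not: 9 proteins that share a tetramerisation domain with potassium channels (the KCTD family) and 3 matches by description only, CD79B, SAP1B and a probe shared by TUSC2 and CACNA2D2. One entry is a probe in an intron of CACNA1D, kept apart from the CACNA1D gene. No probe carried an HCN or CLCN symbol, and the HCN class holds LOC428335 alone. For 12 entries the files' names disagree or are indirect. Among them, the SCN1A probe carries the gene number of SCN9A, the SCN3A probe is described as SCN2A, and 1 SCN2A probe also matches SCN9A.

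Optic tecta of Gallus gallus embryos were cut along 1 axis, and 60 pieces were pooled for each channel of a dual-colour array. The 4 groups are posterior against anterior tectum at HH37 and at HH35 (AP arrays), and a medial-lateral cut at HH35 and at HH30 (ML arrays), where HH is the Hamburger-Hamilton stage. Each group is 1 array with no dye swap, all embryos were untreated as far as the labels say, and the labels name no strain or sex. The Cy5 dye marks the posterior pool on AP arrays both in the labels and in the authors' deposited table. On ML arrays the labels and that table disagree about the side, so values are given by dye and no side is named.

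A voltage-gated channel has a pore subunit that opens with the voltage across the membrane, and auxiliary subunits that set its gating, its amount at the surface and its place in the cell. Sodium channels carry the rising phase of the action potential, potassium channels repolarise the cell and set firing rate, and calcium channels couple activity to transmitter release and gene expression. The tectum is the midbrain target of retinal axons. Its neurons acquire these channels as they leave the cell cycle and form layers.

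On the AP array at HH37, 63.2% of gene probes were well above background in at least 1 channel, against 79.5% on the AP array at HH35, and the ML arrays had 70.9% at HH35 and 70.1% at HH30. The arrays did not sort by stage. Across 30502 features, the whole tectum signal (mean log2 of both channels) of the AP array at HH37 correlated with that of the ML array at HH35 at r = 0.94, and the AP array at HH35 with the ML array at HH30 at r = 0.94, while both arrays of HH35 correlated at r = 0.84. The log2 ratios of the AP array at HH37 correlated with those of the ML array at HH35 at r = 0.57, and with those of the AP array at HH35 at r = 0.41. These r describe features that share probes and dyes, with no p. Results that rest on stage or axis are therefore given per array. Repeated control spots had an SD of 0.10 to 0.13 (log2) within an array. All 5 of 5 tectal markers present on the array, and 9 of 9 neuronal markers, were measured on all arrays. So were the muscle markers ACTA1, DES, MYOD1 and TNNT3, so being measured does not identify the tissue.

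Of the 89 entries, 71 were measured on the AP array at HH37 and 84 on the AP array at HH35, and 73 on the ML array at HH35 and 75 on that at HH30. Of these, 17, 13, 10 and 12, in that order, were above background in Cy3 only, and 0 in Cy5 only. All gene probes showed the same imbalance. In the same order, 63.2%, 79.4%, 70.8% and 70.0% were above background in Cy3, against 41.2%, 59.5%, 53.0% and 50.7% in Cy5. Detection in Cy3 alone is thus not particular to channel genes. Bounds given below as "at least" rest on Cy3 alone and leave out the spread between spots. CACNG1, CACNG4 and the epithelial sodium channel subunit SCNN1A were not well above background on any array. In all, 78 entries were measured on at least 2 arrays and entered the tests.

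Along the anteroposterior axis, most channel genes lay slightly toward the anterior pool. The median log2 ratio of posterior over anterior was -0.20 over 71 genes at HH37 and -0.10 over 84 at HH35, against -0.02 and -0.01 over all measured features. At HH37, 53 of 71 lay on the anterior side, where 52.5% of all features did. At HH35 it was 48 of 84, where 51.6% of all features did. Of 70 genes measured at both stages, 30 (42.9%) lay on the anterior side at both, against 34.9% of all features, and 10 (14.3%) on the posterior side at both, against 32.7%. No list test was made of these shifts. Without the 12 entries that are not channel subunits, the medians were -0.17 at HH37 and -0.09 at HH35. Median centring, used instead of loess, gave a median of -0.43 for members and -0.19 for all features at HH37, with 65 of 71 members and 73.1% of features on the anterior side, so the size of the shift depends on how the array is scaled. At HH35 it gave -0.20 for members and -0.09 for all features, with 59 of 84 members and 60.6% of features on the anterior side.

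**Figure D1:**
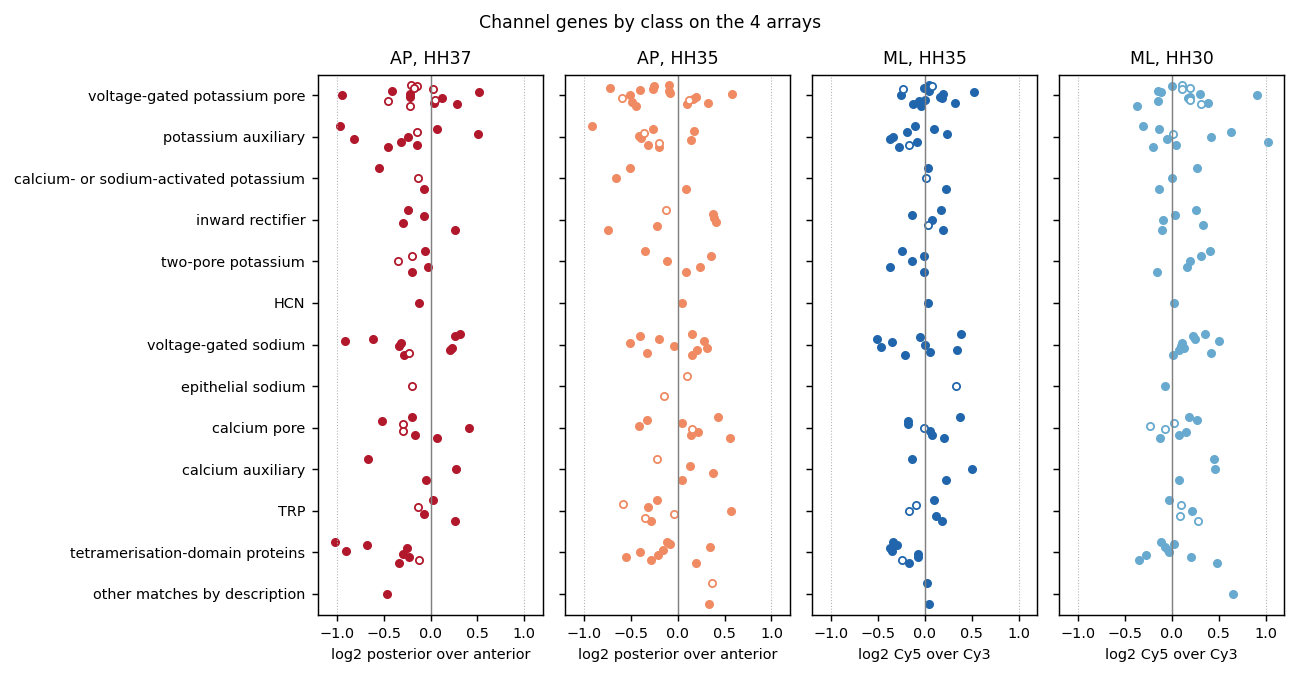
Each point is 1 channel gene at its brightest probe, placed by its log2 ratio (horizontal axis) and its class (vertical axis), on the AP arrays at HH37 and HH35 and the ML arrays at HH35 and HH30. Filled points had both channels well above background, open points only Cy3, and dotted lines mark 2-fold. The members' medians are -0.20, -0.10, -0.01 and 0.09 from left to right.

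KCNAB1, the beta subunit of Kv1 channels that speeds their inactivation, was the 1 member that passed the test along this axis, and it fell in the posterior pools. Its raw foreground at HH37 was 861 in the posterior channel and 2057 in the anterior channel over backgrounds of 51 and 41, and at HH35 it was 2132 and 4872 over 40 and 41. After normalisation it was 1.96-fold higher in the anterior pool at HH37 and 1.89-fold higher at HH35, log2 ratios of -0.97 and -0.92. Both stages thus gave nearly the same ratio, and on the ML arrays the gene stood at -0.11 at HH35 and -0.31 at HH30. In limma the AP mean was -0.94 ± 0.14 (SE, 2 arrays, adjusted p = 0.0190), lower posteriorly on 2 of 2 arrays. This SE, like those below, combines the gene's own spread with that of all tested features. The same test called 2.80% of all 30502 features, 812 lower and 43 higher in the posterior pools, so 1 of 78 members is below that share. At an unadjusted p under 0.05 there were 18 of 78 members (23.1%) and 23.3% of all features. The authors' deposited table gave KCNAB1 an anterior over posterior ratio of 1.67 at HH37 and 1.96 at HH35. The call was lost in 3 of 12 alternatives, by limma at adjusted p = 0.203 with plain background subtraction, 0.251 with the deposited value table and 0.124 with a trended and robust variance, with adjusted p between 0.00900 and 0.251 by limma over all 12 and a log2 value between -1.16 and -0.85.

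Markers of neurons lay further to the anterior side than the channels. The 9 measured neuronal markers had a median log2 ratio of -1.54 at HH37, ranging between -2.17 and -0.67, and of -0.57 at HH35, ranging between -1.15 and 0.31. On the ML arrays 9 of 9 lay on the Cy3 side at HH35 (median -0.39) and 1 of 9 at HH30 (median 0.23). The shares of all features were 52.6% and 53.0%. In limma 6 of the 9 were lower posteriorly at adjusted p under 0.05, against 2.66% of features, and so were 4 of the 5 tectal markers, whose median AP value was -0.67. In the contrast of AP minus ML, where a dye effect equal on all arrays cancels, limma called 0 of the 9 neuronal and 0 of the 5 tectal markers, and 0% of features. The marker lists were chosen with earlier results of these arrays known, so setting these counts against all features is no independent test. Over all features limma called 0 with plain background subtraction, 0 with the deposited value table and 1 with a trended and robust variance, so these marker calls rest on the setting. The haemoglobin gene HBBA, the only measured marker of blood, stood at -1.68 at HH37 and 0.03 at HH35. In pooled tissue, fewer cells of a type and less RNA per cell cannot be told apart, and the part of these markers in the channel ratios was not tested. Progenitor markers had medians of -0.14 at HH37 and 0.58 at HH35.

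The Kv4 family carries the fast transient potassium current of dendrites, and KChIP proteins (KCNIP genes) bind its pore subunits and raise their surface level. KCND2, the Kv4.2 pore, stood at -0.95 at HH37 and -0.51 at HH35, 1.93-fold and 1.42-fold higher anteriorly. KCNIP2 stood at -0.82 and -0.39 at these stages, and KCNIP1 at -0.24 and -0.41. All 3 lay on the anterior side at both stages. KCND3, the Kv4.3 pore, stood at -0.22 at HH37 and 0.20 at HH35, and KCNIP4 at -0.31 and 0.14, so these 2 lay on different sides at the 2 stages. The AP mean was -0.73 ± 0.23 for KCND2 (adjusted p = 0.0928) and -0.60 ± 0.16 for KCNIP2 (adjusted p = 0.0619, SE, limma, 2 arrays), neither past the threshold. KCND2 was called by limma with median centring and without either ML array, and KCNIP2 with median centring, without the AP array at HH35 and where both channels had to be well above background. The authors' deposited table gave KCND2 an anterior over posterior ratio of 2.53 at HH37 and 1.43 at HH35.

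**Figure D2:**
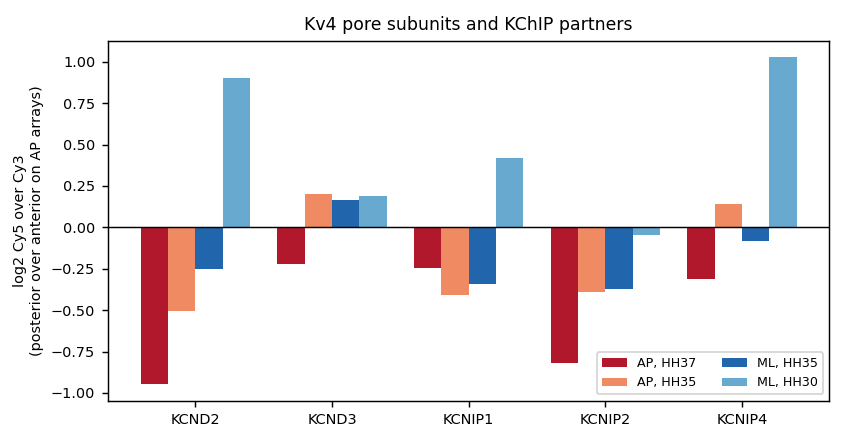
Bars give the log2 ratio of Cy5 over Cy3 (vertical axis, posterior over anterior on AP arrays) for the Kv4 pore genes KCND2 and KCND3 and their partners KCNIP1, KCNIP2 and KCNIP4, 1 bar for each of the 4 arrays, with no replicate error. KCND2 runs between -0.95 on the AP array at HH37 and 0.90 on the ML array at HH30, and KCNIP4 reaches 1.03 at HH30.

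Among the other voltage-gated potassium pores, 17 genes in all with KCND2 and KCND3, 15 were measured at both AP stages, 7 of them anterior and 4 posterior at both. KCNA2, a Kv1 pore of axons, stood at -0.73 at HH35. At HH37 only its anterior channel was well above background, and the computed ratio was 1.13-fold higher anteriorly. KCNH6, of the ERG group, stood at -0.49 at HH35. At HH37 its computed ratio was 1.37-fold higher anteriorly, again with only the anterior channel well above background. The other KCNH6 probe, measured in both channels, lay on the posterior side, at 0.27 at HH37 and 0.48 at HH35, so the side of KCNH6 depends on the probe. The AP means were -0.45 ± 0.16 for KCNA2 (adjusted p = 0.130) and -0.47 ± 0.14 for the brightest KCNH6 probe (adjusted p = 0.0847, SE, limma, 2 arrays). KCNA1, the close relative of KCNA2, stood at -0.09 at HH35, and its computed ratio from 1 measured channel was 1.16-fold higher anteriorly at HH37. The Kv3 pores, which allow fast firing, did not share 1 side. KCNC1 stood at -0.41 at HH37 and -0.09 at HH35, KCNC2 at 0.52 and -0.08, and KCNC4 at -0.22 and 0.58. KCNG1, a modifier subunit that is silent alone, was at least 1.42-fold higher anteriorly at HH35 and was measured on no other array.

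Of the 10 potassium auxiliary genes, 9 were measured at both AP stages, and 5 lay on the anterior side at both and 0 on the posterior side. Besides KCNAB1, KCNIP1 and KCNIP2 these were KCNRG, which reduces potassium channel function, at -0.45 at HH37 and -0.20 at HH35, and KCNMB4, a beta subunit of BK channels, at -0.14 and -0.32. KCNAB2, the paralogue of KCNAB1, stood at 0.07 at HH37 and -0.26 at HH35. KCNE3, a single-span partner of several potassium pores, stood at 0.51 at HH37 and was at least 1.12-fold higher anteriorly at HH35, the opposite side.

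KCNMA1, the pore of the BK channel that opens with calcium and voltage together, had almost equal ratios at both stages, -0.55 at HH37 and -0.51 at HH35. Its AP mean was -0.53 ± 0.14 (SE, limma, 2 arrays, adjusted p = 0.0674), just outside the threshold. For KCNN2, a small-conductance calcium-activated channel, only the anterior channel was well above background at HH37, and the computed ratio of -0.13 gave no bound above 1. At HH35 it stood at -0.66. The sodium-activated KCNT1 stood at -0.07 and 0.09. Inward rectifiers hold the resting potential, and 4 of the 6 were measured at both stages. KCNJ8, the pore of an ATP-sensitive channel found in vessel walls, stood at 0.26 at HH37 and -0.75 at HH35. KCNJ3, which G proteins open, stood at -0.24 and 0.39, the opposite order. The 5 leak channels of the K2P family lay between -0.35 and -0.03 at HH37, and 2 of 5 were below 0 at HH35, where 52.5% and 51.6% of features were. On the ML arrays 5 of 5 were below 0 at HH35, between -0.37 and -0.003, and 1 of 5 at HH30. There 52.6% and 53.0% of features were. In the authors' deposited table the anterior over posterior ratio at HH37 was 0.973 for KCNK1 and 0.943 for KCNK5, so their side is not settled. LOC428335 stood at -0.13 and 0.05.

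Voltage-gated sodium channels were measured at both AP stages for all 10 genes, 4 of them anterior and 3 posterior at both. SCN2A, a pore of unmyelinated axons, stood at -0.61 at HH37 and -0.20 at HH35. Its other probes gave -1.05 with both channels measured and -0.32 with 1 channel at HH37, and -0.64 and -1.05 at HH35, all on the same side. The probe named SCN3A, a pore known from the embryonic brain of mammals, stood at -0.32 and -0.50, with an AP mean of -0.41 ± 0.14 (SE, limma, 2 arrays, adjusted p = 0.122). SCN8A, a pore of the axon initial segment, stood at -0.28 at HH37 and 0.16 at HH35. SCN2B, a beta subunit that links the pore to cell adhesion, stood at -0.92 at HH37 and 0.28 at HH35. Its raw foreground was 168 posterior and 458 anterior at HH37, and 1378 posterior and 1436 anterior at HH35. The authors' deposited table gave it an anterior over posterior ratio of 2.23 at HH37 and 0.832 at HH35. SCN3B stood at -0.34 and -0.04. SCN4A, LOC395944 (described as the sodium channel SNS) and SCN4B lay on the posterior side at both stages, SCN4A at 0.23 and 0.32, LOC395944 at 0.31 and 0.15, and SCN4B at 0.20 and 0.20. None of these passed the test. The other SCN4A probe stood at 0.04 at HH37, with 1 channel measured, and at -0.11 at HH35, so the side of SCN4A depends on the probe.

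Calcium channel pores were spread to either side. CACNA1B, the N-type pore of presynaptic terminals, stood at -0.52 at HH37 and -0.32 at HH35. Another CACNA1B probe gave -0.60 and 0.19 and the remaining one -0.02 and 0.53, so the probes disagree at HH35. CACNA1A, the P/Q-type pore, stood at -0.19 and 0.43, and CACNA1S, known as the pore of skeletal muscle, at 0.07 and 0.56. CACNA1D was not well above background at HH37 and stood at -0.42 at HH35, and its measured probes differed by up to 1.10 on the log2 scale at HH35. The T-type pore CACNA1H stood at -0.17 and 0.14. Its other probe, measured in both channels, gave -0.70 and -0.04, so the CACNA1H ratios depend on the probe. CACNB3, a cytoplasmic beta subunit that brings pores to the membrane, was on the Cy5 side on all 4 arrays: 0.27 at HH37 and 0.38 at HH35 on the AP arrays, and 0.51 at HH35 and 0.46 at HH30 on the ML arrays. It had the highest AP mean of the members, 0.33 ± 0.14 (SE, limma, 2 arrays, adjusted p = 0.191). A dye effect and a difference between pools cannot be told apart for a gene that keeps its side on all 4 arrays. Of 67 members measured on all arrays, 7 kept the Cy5 side on all 4 (CACNB3, KCNG2, KCNG4, KCNH7, LOC395944, SCN4A and SCN4B). On the Cy3 side there were 11 (KCNA2, KCNAB1, KCNH6, KCNIP2, KCNRG, KCNS1, KCTD1, KCTD2, KCTD5, KCTD6 and KCTD9). Another KCNH6 probe lay on the Cy5 side on both AP arrays, at 0.27 at HH37 and 0.48 at HH35. The share of all features that kept a side was not counted, so these counts are not set against it. Another SCN4A probe stood at -0.11 on the AP array at HH35, with both channels measured. Another KCNH7 probe stood at -0.09 on the ML array at HH30, also with both channels measured. CACNA2D2, an alpha-2-delta subunit that carries pores to the terminal, stood at -0.66 at HH37 and 0.13 at HH35.

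TRP channels are cation channels opened by lipids, temperature or stores rather than mainly by voltage. Of 8, 4 were measured at HH37 and 7 at HH35. TRPC1 stood at 0.02 at HH37 and -0.22 at HH35, and TRPM2, opened by oxidative stress, at -0.06 and 0.57. TRPV1, the capsaicin receptor, was not well above background at HH37 and was at least 1.10-fold higher anteriorly at HH35. Of the epithelial sodium channels, SCNN1G alone was above background in both channels, on the ML array at HH30.

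The KCTD proteins are not channels, and many serve as adaptors of ubiquitin ligases or of GABA-B receptors. All 8 measured at HH37 lay on the anterior (Cy3) side, between -1.02 and -0.12, where 52.5% of all features did. At HH35 it was 7 of 9, where 51.6% of features did. On the ML arrays 8 of 8 lay on the Cy3 side at HH35, between -0.37 and -0.07, where 52.6% of features did. At HH30 6 of 9 did, where 53.0% of features did. For this class a dye effect and a difference between pools cannot be told apart. KCTD1 was the only member at least 2-fold apart on either AP array, 2.03-fold higher anteriorly at HH37, where 1.77% of features were at least 2-fold higher anteriorly and 0.0980% posteriorly. At HH35 0 of 84 members were 2-fold apart, where 0.626% of features were anteriorly and 0.153% posteriorly. At HH35 KCTD1 stood at -0.11. KCTD2 stood at -0.90 at HH37 and -0.16 at HH35, and KCTD10 at -0.67 and -0.08. KCTD1 and KCTD2 had AP means of -0.57 ± 0.20 and -0.53 ± 0.18 (SE, limma, 2 arrays, adjusted p = 0.119 for each). The authors' deposited table gave KCTD1 an anterior over posterior ratio of 1.64 at HH37 and 1.06 at HH35. At 1.5-fold, 9 of 71 members were higher anteriorly at HH37, where 9.92% of features were, and 6 of 84 at HH35, where 6.04% were. In the posterior direction there were 0 at either stage, where 1.51% and 2.05% of features were. KCNAB1 was in both groups of 1.5-fold.

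**Figure D3:**
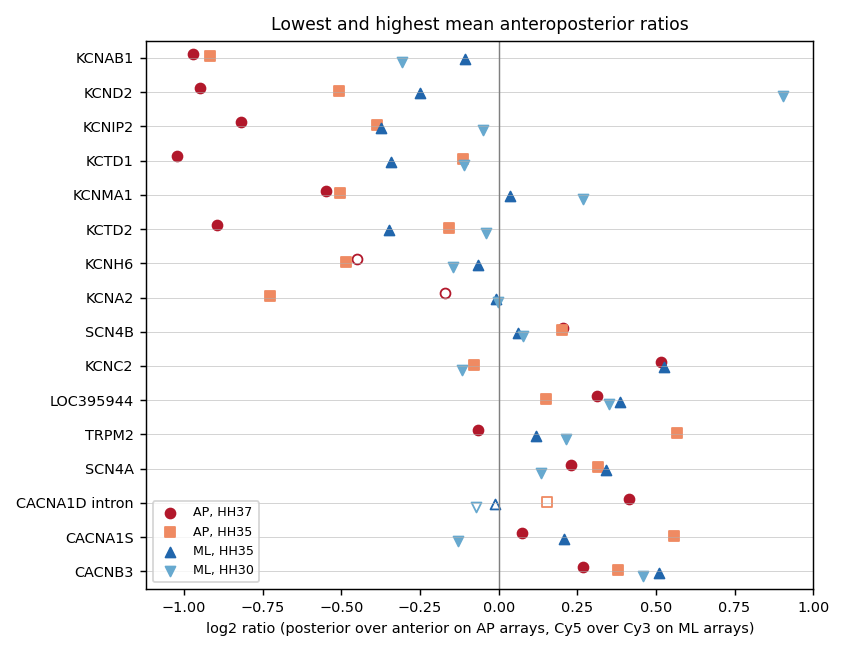
Genes with the 8 lowest (top) and 8 highest (bottom) mean AP ratios are listed down the page, with the log2 ratio on the horizontal axis and 1 marker for each of the 4 arrays. Open markers had only 1 channel well above background. The KCNAB1 markers of the AP arrays lie at -0.97 and -0.92, and KCND2 stands at 0.90 on the ML array at HH30.

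On the ML arrays the members' median log2 ratio of Cy5 over Cy3 was -0.01 over 73 genes at HH35 and 0.09 over 75 at HH30, against -0.02 over all features at each stage. At HH35, 35 of 73 lay on the Cy5 side, where 47.4% of features did, and at HH30 50 of 75 did, where 47.0% of features did. With median centring 23 of 73 at HH35 and 41 of 75 at HH30 lay on the Cy5 side. The Cy3 side then held 50 of 73 members and 59.3% of features at HH35, and 34 of 75 and 61.7% at HH30. Of 69 genes measured at both stages, 22 (31.9%) lay on the Cy5 side at both, against 26.6% of features, and 14 (20.3%) on the Cy3 side at both, against 32.8%. The voltage-gated sodium class had 4 of 9 genes on the Cy5 side at HH35 and 10 of 10 at HH30, between 0.01 and 0.50. The lowest of these, SCN8A at 0.01, lay within the SD of repeated spots (0.13). Another SCN8A probe, measured in Cy3 only, stood at -0.42 at HH30, so the side of SCN8A depends on the probe. At HH35 0 of 73 members were at least 2-fold apart, where 0.0664% of features were in Cy5 and 0.0280% in Cy3. At HH30 KCNIP4 was the only such member, where 0.269% of features were in Cy5 and 0.0637% in Cy3. KCNIP4 stood at -0.08 at HH35 and at 1.03 at HH30, 2.04-fold higher in Cy5. Its raw foreground at HH30 was 1160 in Cy5 and 561 in Cy3 over backgrounds of 44 and 41.

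KCND2 stood at -0.25 at HH35 and at 0.90 at HH30, where its raw foreground was 476 in Cy5 and 243 in Cy3. The authors' deposited table placed both on the same side at HH30, with ratios of 0.443 for KCNIP4 and 0.476 for KCND2. These deposited ratios run against Cy5 over Cy3, and inverted here they were 2.26 and 2.10. KCNIP1 stood at -0.34 at HH35 and 0.42 at HH30, whereas KCND3 stood at 0.17 and 0.19 and KCNIP2 at -0.37 and -0.05. At HH35 no member reached 1.5-fold either way, where 1.43% of features did in Cy5 and 0.783% in Cy3. At 1.5-fold, 0 of 75 members were higher in Cy3 at HH30, where 1.18% of features were, and 4 were higher in Cy5, where 1.49% were: KCNIP4, KCND2, a probe described as KCNE1-like at 0.64, and the probe shared by TUSC2 and CACNA2D2 at 0.66. CACNA2D2 at its own probe stood at -0.13 at HH35 and 0.45 at HH30.

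By limma, 0 of 78 members were called over both ML stages (3 at an unadjusted p under 0.05), where 0.00656% of features were. The highest means were 0.48 for CACNB3 (adjusted p = 0.473, limma, 2 arrays), 0.47 for KCNIP4, 0.37 for LOC395944 and 0.35 for KCNH7, an ERG-type pore. Below these came KCND2 at 0.33, CACNA1A at 0.28 and KCNC4 at 0.25. The lowest were -0.30 for KCTD9, -0.24 for KCNRG, -0.23 for KCTD1 and -0.22 for KCTD12B, a KCTD family member, followed by KCNIP2, KCNAB1 and KCNS1, a silent modifier subunit, at -0.21 each and KCTD2 at -0.19. In the contrast of AP minus ML, in which a dye effect equal on all arrays cancels, 0 of 78 members and 0% of features were called, and 7 members (8.97%) had an unadjusted p under 0.05, against 8.27% of features. All 7 were lower on the AP side, among them KCND2 at -1.05, KCNAB1 at -0.74, KCNMA1 at -0.68, KCTD7 at -0.56, SCN3A at -0.47 and TRPV2 at -0.44. KCTD7 and TRPV2 were measured on only 2 arrays, so their contrasts rest in part on arrays with neither channel well above background. The lowest adjusted p among members was 0.387 by limma, for KCNAB1. The AP call of KCNAB1 is therefore not shown to differ from its ML value.

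The ratio of some genes differed between the stages of an axis, which was not tested with 1 array a stage. On the AP arrays, HH37 minus HH35 was -1.19 for SCN2B, -0.91 for KCTD1, -0.80 for the probe shared by TUSC2 and CACNA2D2, -0.80 for KCNC4 and -0.79 for CACNA2D2, so these lay further to the anterior side at HH37. It was 1.003 for KCNJ8, 0.86 for KCNE3, 0.66 for SCN1A, 0.59 for KCNC2 and 0.55 for KCNA2, the values of KCNE3 and KCNA2 resting on 1 channel at 1 stage. On the ML arrays, HH35 minus HH30 was -1.15 for KCND2, -1.11 for KCNIP4, -0.86 for SCN2B, -0.82 for the KCNE1-like probe and -0.76 for KCNIP1. It was 0.64 for KCNC2, 0.37 for KCNT1 and 0.34 for CACNA1S. KCND2 and its partners KCNIP1 and KCNIP4 thus had 3 of the 5 lowest ML changes.

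The whole tectum signal at each stage is the mean of both channels of an array, with 1 array at HH30, 2 at HH35 and 1 at HH37, and a level is set only against the same probe. By limma 0 of 78 members and 0% of features were called for HH35 over HH30, and 0 of 78 and 0% for HH37 over HH35, with 1 residual degree of freedom. At an unadjusted p under 0.05 there were 0 and 1 members, the 1 being SCN3A, and 570 and 489 features. Both arrays of HH35 differed by a median of 0.75 (log2) over the members and 0.58 over all features, and 29 of 78 members differed by more than 1.

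Stage values beyond that gap are therefore few. The signal of 5 members at HH30 or HH37 lay at least 2-fold outside both HH35 arrays and further from them than they lay from each other. CACNA1A had a signal of 8.79 at HH30, 10.33 and 10.17 on the AP and ML arrays at HH35, and 10.35 at HH37. It was the 1 member that low at HH30, where 1.23% of features were. KCTD5 had 11.28 at HH30, 10.12 and 9.19 at HH35 in the same order of arrays, and 9.26 at HH37, the 1 member that high at HH30, where 4.40% were. SCN3A had 9.97 at HH30, 10.97 and 10.93 at HH35, and 9.31 at HH37, so it was highest on both HH35 arrays. KCNK5, an acid-sensitive leak channel, had 10.29, then 10.15 and 9.91, then 8.85. These 2 were that low at HH37, where 3.36% of features were. CACNA1H had 10.02, then 10.13 and 10.30, then 11.33, the 1 member that high at HH37, where 2.54% were. Its other probe ran the opposite way, with 10.03, then 9.99 and 9.10, then 8.61, so the CACNA1H signal at HH37 depends on the probe.

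**Figure D4:**
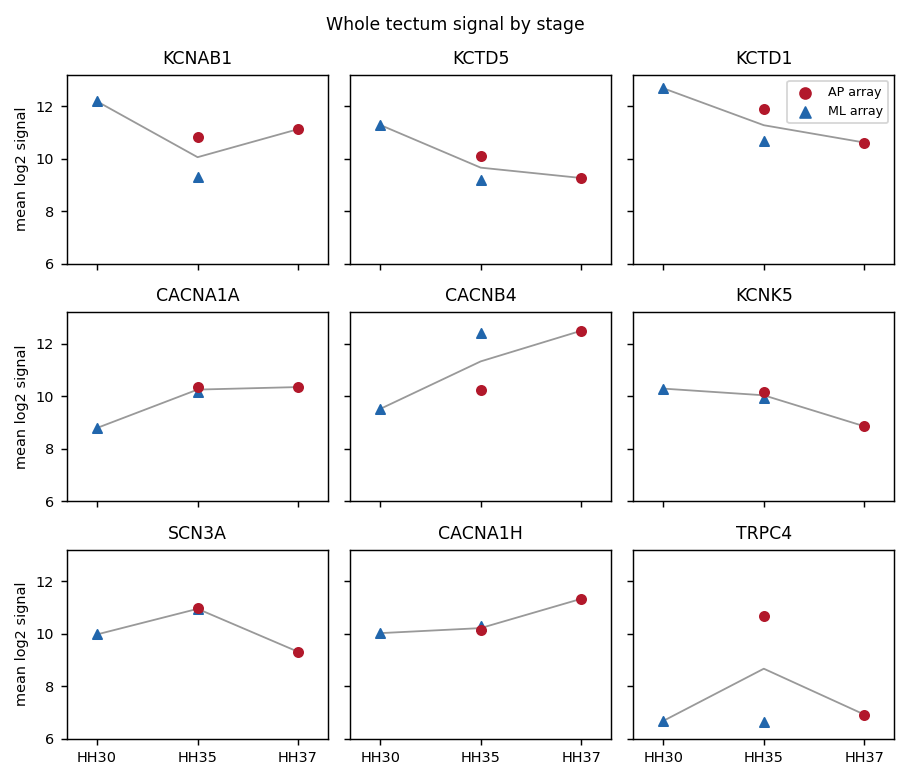
Whole tectum signal (vertical axis, mean log2 of both channels) at HH30, HH35 and HH37 (horizontal axis) for 9 channel genes, with 1 point for each array and a line through the mean of HH35. Both HH35 points of CACNA1A, SCN3A, CACNA1H and KCNK5 lie close together, and those of the brightest TRPC4 probe differ by 4.02.

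KCNAB1, which passed the AP test, had a signal of 12.18 at HH30, 10.80 and 9.30 on the AP and ML arrays at HH35, and 11.12 at HH37. HH30 was the highest, and HH35 minus HH30 was -1.37 with the AP array and -2.87 with the ML array. The gap between both HH35 arrays was 1.501, so the difference with the AP array is within it. Several genes took values on the ML array at HH35 close to those at HH37, and values on the AP array at HH35 close to those at HH30. SCN4A had 7.66 at HH30, 7.02 and 9.15 on the AP and ML arrays at HH35, and 9.69 at HH37. Its other probe had 6.70, then 6.73 and 6.84, then 6.91, so the SCN4A differences depend on the probe. CACNB4, a beta subunit, had 9.51, then 10.25 and 12.40, then 12.49. KCNC2 had 7.73, then 8.19 and 9.87, then 10.54. Since HH30 and HH37 have 1 array each, stage and array cannot be told apart for these or any other genes.

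**Figure D5:**
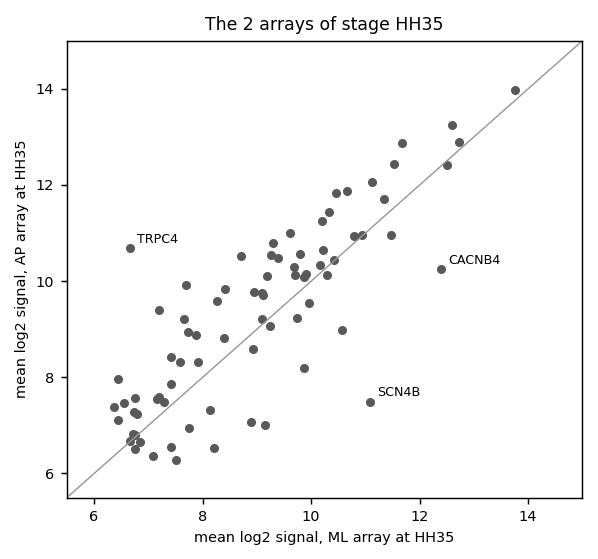
Each point is 1 of the 78 tested channel genes, with its mean log2 signal on the ML array at HH35 (horizontal axis) and on the AP array at HH35 (vertical axis), and the line marks equality. The median gap is 0.75. Only TRPC4, SCN4B and CACNB4 are labelled, and the unlabelled KCNS1 and CACNA1C lie slightly further from the line than CACNB4.

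TRPC4 stands furthest from equality, with a signal of 10.68 on the AP array and 6.66 on the ML array at HH35, 6.68 at HH30, where it was not well above background, and 6.92 at HH37. Its other probe had 6.85 on the AP array and 6.58 on the ML array at HH35, 6.75 at HH30 and 7.07 at HH37, so the gap rests on 1 probe on 1 array. In the direction that both HH35 arrays give, 29 of 78 members (37.2%) were higher at HH35 than at HH30, where 29.6% of features were, and 13 (16.7%) were lower, where 33.6% of features were. For HH37 over HH35 the shares were 34.6% higher and 33.3% lower, against 33.0% and 38.8% of features. By class, and again with both HH35 arrays, 4 of 10 sodium channel genes, 11 of 16 voltage-gated potassium pores and 2 of 8 calcium pores were higher at HH35 than at HH30, and 6 of 9 KCTD genes were lower. Among members with 1 direction on both HH35 arrays, the mean log2 difference for HH35 over HH30 was 1.81 for CACNB4, 1.46 for KCND2, 1.46 for CACNA1A and 1.30 for KCNC2, and -2.12 for KCNAB1, -1.63 for KCTD5, -1.41 for KCTD1, -1.29 for KCTD10 and -0.90 for KCTD9. With the AP and ML arrays apart, CACNB4 gave 0.73 and 2.89 and KCNC2 0.46 and 2.14, whereas CACNA1A gave 1.54 and 1.38. The smaller of the differences with each HH35 array was within the gap of these arrays for CACNB4, KCND2, KCNC2, KCNAB1, KCTD1 and KCTD10. Others changed direction with the HH35 array. HH35 minus HH30 was -0.26 for SCN4B with the AP array and 3.33 with the ML array, and for CACNA1C, the pore of an L-type channel, it was 2.19 with the AP array and -0.01 with the ML array. For HH37 over HH35, again with 1 direction on both HH35 arrays, the mean difference was 1.68 for LOC395944 and 1.61 for SCN4A at the high end, and -1.64 for SCN3A and -1.48 for KCNC1 at the low end. With the AP and ML arrays of HH35 apart, LOC395944 gave 2.59 and 0.76, SCN4A 2.67 and 0.54, and KCNC1 -2.00 and -0.95. SCN3A gave -1.65 and -1.62. The HH37 over HH35 values of KCTD10 and SHKBP1 were -1.40 and -1.33. Those of KCNE3 and TRPV4, a TRP channel of osmotic stretch, were 1.31 and 1.23. With the AP and ML arrays of HH35 apart, KCTD10 gave -2.10 and -0.70 and SHKBP1 -2.02 and -0.65. KCNE3 gave 2.15 and 0.46, and TRPV4, measured on only 2 arrays, gave 1.83 and 0.62. The smaller of these differences was within the gap of the HH35 arrays for LOC395944, SCN4A, KCNC1, KCTD10, SHKBP1, KCNE3 and TRPV4. By the mean of both HH35 arrays, progenitor markers were lower at HH35 than at HH30 for 8 of 8 genes, with a median of -0.87. So were 4 of 4 measured markers of meninges and pericytes, with a median of -3.42, and 14936 of 30502 features. With the ML array alone MKI67 was not lower, at 9.35 against 9.28 at HH30. At HH37, 9 of 9 neuronal markers were lower than the HH35 mean, with a median of -1.30, and 5 of 5 tectal markers, with a median of -1.16. So were 16631 of 30502 features. Against the ML array alone, STMN2 (13.55 at HH37, 13.51 at HH35) and LHX9 (9.77 and 9.30) were not lower. HBBA stood at -1.28 for each step. Their part in the channel signals was not tested.

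Genes that anchor or modulate channels had a median AP value of -0.45, against -0.12 over the 78 tested members and -0.10 over the 68 that are channel subunits. Of 23 measured, 5 fell in the posterior pools by limma, against 2.66% of features. SPTBN1, a spectrin of the membrane skeleton, was at -1.11, the adhesion gene CNTN1 at -0.99, FGF13, which binds sodium channels, at -0.82, the calmodulin gene CALM2 at -0.80 and the adhesion gene NRCAM at -0.66 (limma, adjusted p between 0.0284 and 0.0483). These calls rest on the setting in the same way as those of the markers, since limma called 0, 0 and 1 of all features under those 3 alternatives. In AP minus ML limma called 0 of the 23 and 0% of features. On the ML arrays 19 of the 23 lay on the Cy3 side at HH35 and 6 at HH30, where 52.6% and 53.0% of features did. DPP6, a partner of Kv4 channels, stood at -0.64 (adjusted p = 0.0517, limma). Of 11 ion pumps and carriers, 1 fell posteriorly, the plasma membrane calcium pump ATP2B1 at -0.92 (adjusted p = 0.0466, limma), and the list's median was -0.28. Of 8 genes of calcium release and store entry 0 were called, and their median was 0.07. These lists were chosen with earlier results of the arrays known.

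Where a gene had several probes, the probes often disagreed. At HH37 on the AP array, 10 of 13 genes with at least 2 measured probes had all of them on the same side, with a median spread of 0.19, and at HH35 7 of 15 did, with a median spread of 0.43. On the ML arrays it was 9 of 13 at HH35 and 8 of 13 at HH30. KCNAB1, KCND2, KCNIP2, KCNIP4, KCNMA1 and SCN2B each rest on 1 probe.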

How the data were processed

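RNA from pooled tectal pieces was hybridised to 4 dual-colour arrays. The deposited spot tables hold linear, unnormalised spot intensity and the percent of saturated pixels per the file headers. Their columns are those of GenePix, although Agilent Feature Extraction was used per the submitters' processing notes. The authors deposited a table of ratios per probe, the same values as a signed fold change (a score), and a value table, the log2 of the ratio. Their normalisation is not given in the sources used here. This value table runs against Cy5 over Cy3 and was turned, after which its r with the ratios used here was 0.72 to 0.85 across 41824 probes.

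Background was corrected with normexp (offset 50) on mean foreground and median background, and log2 ratios were normalised by loess (span 0.3, controls weighted 0). Tools were limma 3.58.1, R 4.3.3 and Python 3.11.15, pandas 2.3.3, numpy 2.4.6 and matplotlib 3.10.9 for tables and figures. The design foresaw Feature Extraction columns, and the GenePix ones were used instead. A probe was measured where it was not marked as not found and foreground exceeded background by more than 2.6 background SD in at least 1 channel. With 1 channel under that limit the text gives a lower bound or the computed ratio, and fits, medians and counts use it as computed. Bounds take the higher of the dim probe's own signal and the lowest signal among probes well above background. They leave out the spread between spots. Each gene is its brightest probe. Symbols came from the files and a chicken gene table (assembly GRCg7b, names only), which named 10203 of 42034 probes.

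Axis ratios were fitted by limma, each axis with 1 coefficient (2 residual degrees of freedom), so that the stages stand as observations of an axis. The SE and p-values combine a gene's own spread with a prior spread from all tested features (9.8 prior degrees of freedom). They are thus not the spread of 1 gene alone, and they cover only the spread between these arrays. Whole tectum signals were normalised between arrays by quantiles and fitted by stage (1 residual degree of freedom, with the lone arrays assumed to vary like the HH35 pair). Both fits used 30502 features measured on at least 2 arrays, with Benjamini-Hochberg adjustment at 0.05. They were also run on simulated data, with independent noise drawn from the prior spread of the same fits. Such data lack the correlation seen between these arrays, so that run gives no support to the calls. Single arrays got no test, and their number limits the precision.

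The members and lists were chosen with earlier results of these data known. Genes named are those called, those at least 2-fold apart on an array, those with the highest or lowest ratios, ratio changes and signal differences, and a set of well-known channels. Some of these are only counted or not reported here. Spots, probes and names without a match were left out of the gene lists and kept in the adjustment.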

Additional observations from a re-analysis of the deposited data

Results flagged for a closer look

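A few channel genes had log2 ratios on opposite sides at the 2 stages of an axis, each further from 0 than 2 SD of repeated spots, with 1 array a stage, so none of these differences was tested. On the AP arrays, SCN2B had the widest gap, -0.92 at HH37 and 0.28 at HH35, a difference of -1.19. KCNJ8 ran the other way, at 0.26 and -0.75, a difference of 1.003. The probe shared by TUSC2 and CACNA2D2 stood at -0.47 at HH37 and 0.33 at HH35 (a difference of -0.80), SCN1A at 0.26 and -0.40 (0.66), KCNJ3 at -0.24 and 0.39 (-0.64) and KCTD12B at -0.25 and 0.34 (-0.59). Another SCN1A probe stood at 0.20, with 1 channel above background, and 0.46, without a change of side. On the ML arrays, SCN2B stood at -0.35 at HH35 and 0.50 at HH30, a difference of -0.86, and KCNIP1 at -0.34 and 0.42, a difference of -0.76. SCN2B was thus flagged on both axes.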

How the results depend on the processing

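The number of members called along the AP axis was 1. It was 0 with plain background subtraction, 0 with the deposited value table, 0 with a trended and robust variance, 2 where both channels had to be above background, 12 with median centring and between 1 and 4 when 1 array was left out, the 4 coming without the AP array at HH35 and 2 without either ML array. Over all features 855 were called, and 0, 0, 1, 1276 and 4336 under those 5 settings in that order, 439 without a filter on dim probes, and between 682 and 1480 with 1 array left out. Members at least 2-fold apart on the AP arrays numbered 1 at HH37 and 0 at HH35, and 2 and 2 with subtraction, 9 and 1 with median centring, 6 and 3 in the value table and 9 and 6 at 1.5-fold. On the ML arrays they numbered 0 at HH35 and 1 at HH30. At HH30 there were 2 with subtraction, 0 with median centring, 2 in the value table and 4 at 1.5-fold, and at HH35 there were 2 in the value table. The share of all features past 2-fold was not counted under subtraction, median centring or the value table. These counts are therefore not a result about channel genes. The members' median on the AP array at HH37 was -0.43 with median centring, and that of all features was -0.19. Single ratios near 0 changed side with the scaling: with median centring 6 of 71 members were on the posterior side at HH37 and 25 of 84 at HH35, against 18 and 36 with loess. All features moved too, with 73.1% on the anterior side at HH37 and 60.6% at HH35 under median centring, against 52.5% and 51.6% with loess. In total, 0 members were called in the ML, AP minus ML and stage fits under the alternatives run. The median of spot pixels, the restriction to channel subunits and matching with regard to capitals were added after the data were seen. No paired analysis was possible because each group is 1 array and its replicate number comes from accession order. Dim signals limit 10 to 17 members per array to Cy3 alone.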
